A study of Mus musculus with 24 samples.

Results

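Slc7a7 and Oxa1l are a pair of neighbouring genes on mouse chromosome 14 whose last exons overlap on opposite strands, and they are described here in bone marrow-derived macrophages (BMDMs), macrophages grown in culture from marrow precursors. They were found in the deposited count table by their symbols, 2 rows of 24557. The pair was chosen by its measured genotype differences, because the counts under Slc7a7 were lower and those under Oxa1l higher in libraries labelled Ltb4r2-/- than in WT. Those differences are therefore given as a description with no test, and tests are kept for the comparisons of macrophage states, which did not choose the pair.

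Poly(A) RNA was sequenced in 24 libraries, 4 biological replicates for each of 6 groups. The WT and Ltb4r2-/- animals were littermates, the Ltb4r2-/- mice having the C57BL/6J background and lacking BLT2, a receptor for leukotriene B4, in all cells. No age of the marrow donors was given in the sources used here. The labels number the libraries of a genotype alike in every state, and whether a number stands for 1 animal is not stated. Culture before any stimulation lasted 7 days, with the growth factor M-CSF at 10 ng/ml. M0 cells were left unpolarized, M1 cells received 10 ng/ml lipopolysaccharide (LPS) with 25 ng/ml interferon-γ for 16 h, and M2 cells received 10 ng/ml interleukin-4 (IL-4) for 16 h. Whether M0 cells were kept in culture for those 16 h is not stated.

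Slc7a7 encodes y+LAT1, the light chain of a transporter that exchanges cationic amino acids such as arginine and lysine for neutral amino acids, and that reaches the cell surface joined to the heavy chain made by Slc3a2. Loss of its human counterpart causes lysinuric protein intolerance, a disease in which macrophages are among the affected cells. Oxa1l encodes the mitochondrial insertase that places newly made proteins, above all those translated inside mitochondria, into the inner membrane. The genes have no known step in common, and what they share here is their position.

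On GRCm38 (mm10), Oxa1l runs from 54360834 to 54369673 on the plus strand of chromosome 14 and Slc7a7 from 54369442 to 54417780 on the minus strand. They meet tail to tail and share 232 bp, from 54369442 to 54369673. All of the 232 bp are exonic for both genes, in the last exon and 3′ untranslated region (UTR) of each: exon 10 of Oxa1l-201, 990 bp beyond its stop codon, and exon 10, 11 or 12 of the Slc7a7 transcripts that reach it, 112 bp beyond their shared stop codon. The overlap makes up 5.21% of the 4457 annotated exon bases of Oxa1l and 7.00% of the 3315 of Slc7a7. It is reached by 1 of 5 annotated Oxa1l transcripts and by 4 of 12 annotated Slc7a7 transcripts. Ltb4r2 itself lies 1.34 Mb from the far end of Slc7a7, at 55761428 to 55765138 on the same chromosome.

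**Figure D1:**
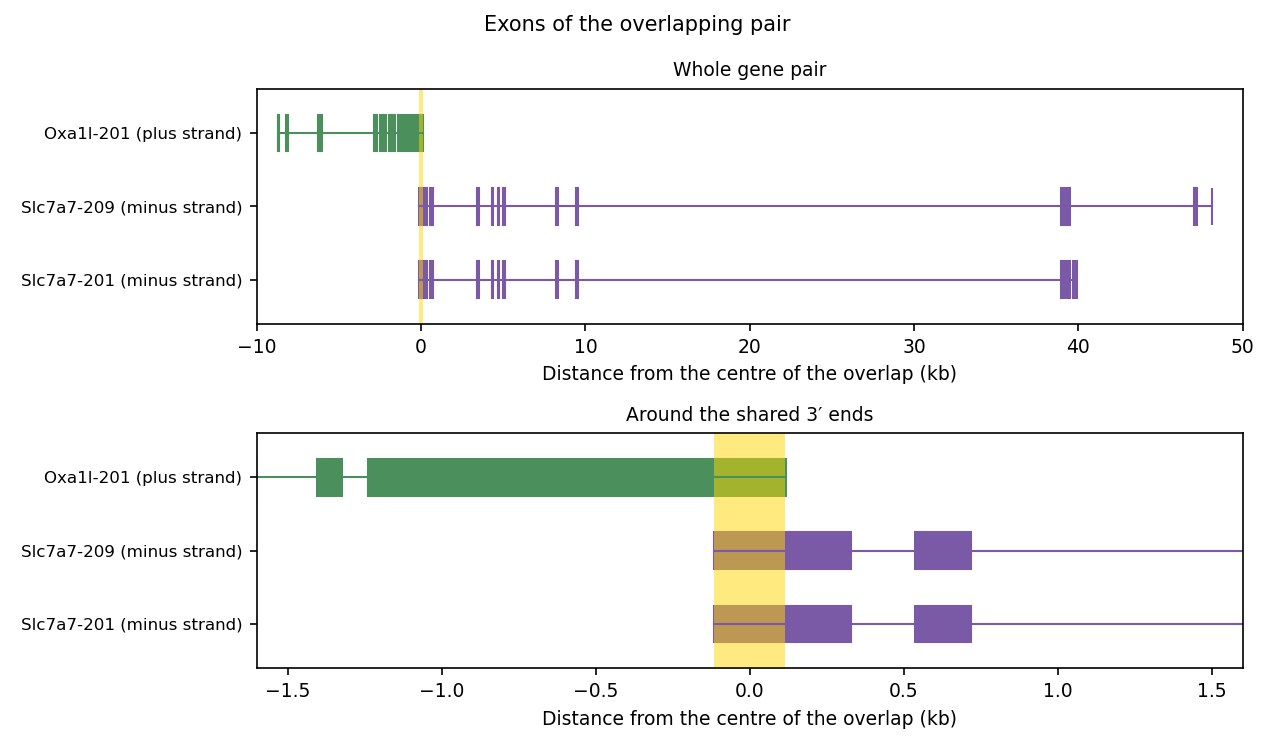
Exons (boxes) and introns (lines) of Oxa1l-201, Slc7a7-209 and Slc7a7-201, 3 annotated transcripts that reach the overlap, by distance in kb from the centre of the 232 bp overlap (yellow band). The upper panel shows both genes whole and the lower panel the converging 3′ ends, where the last exons run into each other.

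Because the 3′ ends are shared and the starts are not, the sequence around the starts was read for 3 transcripts that end in the overlap. RefSeq windows on GRCm38.p6 were matched for both genes, 1 for Oxa1l and 5 for Slc7a7, each from 250 bases before a start to 50 bases after it. Capitals mark matches, on either strand, to any of 7 short motifs. The windows below are 5′ to 3′ on the strand of the gene.
Oxa1l, start of Oxa1l-201, chr14:54360591-54360890, plus strand: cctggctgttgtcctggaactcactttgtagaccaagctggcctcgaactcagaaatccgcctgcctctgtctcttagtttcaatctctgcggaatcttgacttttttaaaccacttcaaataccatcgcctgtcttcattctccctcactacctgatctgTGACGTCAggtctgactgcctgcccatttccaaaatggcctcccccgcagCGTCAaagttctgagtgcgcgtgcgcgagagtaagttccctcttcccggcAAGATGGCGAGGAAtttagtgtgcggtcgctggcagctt
Slc7a7, start of Slc7a7-209, chr14:54417630-54417929, minus strand: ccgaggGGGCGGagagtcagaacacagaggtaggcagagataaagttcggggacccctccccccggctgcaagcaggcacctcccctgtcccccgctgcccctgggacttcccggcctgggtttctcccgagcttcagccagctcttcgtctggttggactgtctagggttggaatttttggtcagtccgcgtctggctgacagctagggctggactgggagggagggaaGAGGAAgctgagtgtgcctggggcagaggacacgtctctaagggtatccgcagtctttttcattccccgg
Slc7a7, start within 12 bases of that of Slc7a7-201, chr14:54409423-54409722, minus strand: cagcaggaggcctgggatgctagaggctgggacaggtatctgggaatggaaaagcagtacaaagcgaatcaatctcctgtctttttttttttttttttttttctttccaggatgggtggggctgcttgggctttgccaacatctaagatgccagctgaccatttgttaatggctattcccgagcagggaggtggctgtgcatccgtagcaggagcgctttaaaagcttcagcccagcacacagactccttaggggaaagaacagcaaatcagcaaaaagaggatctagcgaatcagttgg

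The 3 windows shown differed in their matches, though those of Oxa1l-201 and Slc7a7-209 both held the PU.1 core. In the Oxa1l window, counting the first transcribed base as 1, the YY1 motif AAGATGGC began at 12 and the PU.1 core GAGGAA at 20. The cAMP response half-site TGACG began at −89 and, on the opposite strand, at −86 and −39, the first 2 of these overlapping as a palindrome. The window of Slc7a7-209 held the SP1 GC box GGGCGG at −244 and the PU.1 core at −20, and the window of Slc7a7-201 held none of the 7. Slc7a7 windows not shown held the PU.1 core (54417653 to 54417952 and 54410154 to 54410453) and the GC box (54417895 to 54418194 and 54417653 to 54417952). Among 32851 such mouse windows, 2.75% held the YY1 motif, 20.8% the half-site, 35.7% the GC box and 28.3% the PU.1 core. The others searched were CCAAT (37.4% of windows), TATAAA (13.6%) and the gamma-activated site TTCNNNGAA (8.30%), and the 3 windows matched none of these. A match is a description of the letters and no evidence of binding.

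The libraries were shallow, with 427825 to 729580 counts each and 5933 to 7315 genes with any count. Libraries were made with a strand-specific protocol, but whether the counting used strand is not stated in the sources used here. In the table, the 24.1% of placed genes that have an exon overlap on the opposite strand held 90.3% of the counts, with a median of 6.65 counts per exon kb over all libraries against 0 for other genes. Oxa1l had 1390 counts per exon kb and Slc7a7 283, while Actb, an abundant cytoskeletal gene, had 715. Transcripts of either strand over the pair therefore cannot be told apart by symbol, and each value below is that of the counts under a symbol. Which gene of the pair those counts came from was not tested, so a change under 1 symbol may belong to the other gene. Macrophage markers at a mean of at least 10 counts numbered 6 or 7 of 10 in each group, and those of stromal cells, mast cells, lymphocytes and neutrophils reached it in none. Of 6 erythroid markers 1 reached it, in Ltb4r2-/- M0 alone, where their summed level was 10.7 to 28.0 CPM against 7.93 to 17.7 in WT M0, with the other 5 at 0 in both, and its part in the values of the pair was not tested. M1 markers, 5 of 6, reached it in M1 groups and M2 markers, 4 of 6, in M2 groups and in no other. The strand of the marker counts was not tested, so markers with few counts do not show that a cell type was absent. Ltb4r2 had 0 counts in the WT libraries and 14 in those labelled Ltb4r2-/-, so its counts do not check the labels, which are used as given.

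The counts under Slc7a7 were high in WT M0 and M2 and low in M1. The WT M0 libraries held 44, 117, 125 and 98 counts for replicates 1 to 4, the WT M1 libraries 9, 24, 11 and 10, and the WT M2 libraries 56, 85, 116 and 68. Every WT M1 library lay below every other WT library. In Ltb4r2-/- libraries the counts were 23, 20, 27 and 23 in M0, 3, 4, 2 and 3 in M1, and 25, 10, 17 and 18 in M2. The M1 libraries were again the lowest, at counts where a change of 1 read matters. Expressed as CPM, which are counts relative to the TMM-scaled size of the library, the means were 169 ± 66.5 CPM in WT M0, 152 ± 40.6 in WT M2, 37.0 ± 6.65 in Ltb4r2-/- M0, 31.5 ± 7.66 in Ltb4r2-/- M2, 29.0 ± 10.3 in WT M1 and 7.42 ± 1.96 in Ltb4r2-/- M1 (SD, n = 4 each). In that order WT M0 overlapped WT M2, and Ltb4r2-/- M0, Ltb4r2-/- M2 and WT M1 overlapped each other, so their order is within the spread. The steps from WT M2 down to Ltb4r2-/- M0 and from WT M1 down to Ltb4r2-/- M1 had no overlapping library.

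The counts under Oxa1l were highest in unpolarized cells of both genotypes. The WT M0 libraries held 508, 222, 229 and 198 counts, the WT M1 libraries 160, 162, 73 and 85, and the WT M2 libraries 89, 59, 86 and 86. Replicate 1 stood above its 3 mates in M0. In Ltb4r2-/- libraries the counts were 599, 821, 895 and 736 in M0, 176, 137, 130 and 134 in M1, and 239, 125, 116 and 131 in M2. Every Ltb4r2-/- M0 library exceeded every library of the other groups. The means were 1197 ± 83.1 CPM in Ltb4r2-/- M0, 494 ± 216 in WT M0, 358 ± 61.6 in Ltb4r2-/- M1, 274 ± 57.3 in Ltb4r2-/- M2, 259 ± 73.9 in WT M1 and 150 ± 24.3 in WT M2 (SD, n = 4 each). Of the neighbours in that order, the first and second groups and the fifth and sixth did not overlap, and the groups between overlapped with the next.

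**Figure D2:**
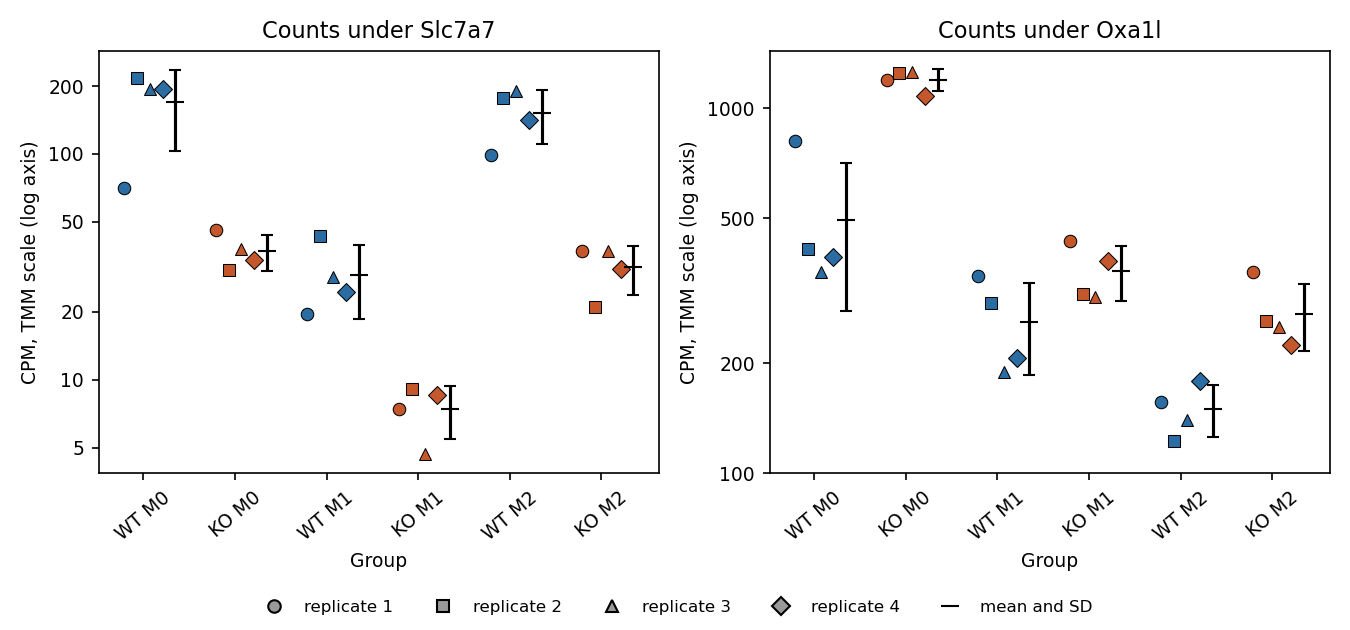
CPM (log axis, TMM scale) under Slc7a7 (left) and Oxa1l (right) in each library of the 6 groups, WT in blue and Ltb4r2-/- (labelled KO) in orange, marker shapes giving the replicate and bars the mean and SD. Slc7a7 ran from 7.42 ± 1.96 in Ltb4r2-/- M1 to 169 ± 66.5 in WT M0 and Oxa1l from 150 ± 24.3 in WT M2 to 1197 ± 83.1 in Ltb4r2-/- M0, and replicate 1 of WT M0 lay apart from its mates in both panels.

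A library stood apart for the pair. WT M0 replicate 1 had 70.7 CPM under Slc7a7, where its mates had 194 to 217, and 817 CPM under Oxa1l, where its mates had 355 to 412. Both values lay between those of the other WT M0 libraries and those of the Ltb4r2-/- M0 libraries. The same library had 2170 CPM under Tep1, a chromosome 14 gene with 2025 to 2261 CPM in the other WT M0 libraries and 305 to 402 in the Ltb4r2-/- M0 libraries. Under Parp2, also on chromosome 14, it had 6.43 CPM and its mates 17.9 to 35.3. Under Gm16617 it had 9.65 CPM and its mates 1.98 to 26.0. Parp2 and Gm16617 had at most 19 counts in a WT M0 library. Over all genes tested the log2 CPM of replicate 1 lay 0.532 (root mean square) from the mean of its mates, where the other WT M0 libraries lay 0.586 to 0.604 from theirs. Without it the WT M0 means were 202 ± 13.4 CPM under Slc7a7, 387 ± 29.0 under Oxa1l and 589 ± 40.2 for their sum (SD, n = 3). The WT M0 libraries, then 194 to 217 CPM under Slc7a7, no longer overlapped those of WT M2 (98.8 to 189), while the order of the group means stayed as above for both genes. Fold changes and shares that rest on it are given below with and without it.

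The first question put to the pair was how it changes with M1 polarization. Counts under both genes fell in M1 relative to M0 in both genotypes. Under Slc7a7 they fell 5.69-fold in WT (log2 fold change −2.51 ± 0.31 SE, adjusted p = 2.54e-08, edgeR's quasi-likelihood test over 3047 genes, Benjamini-Hochberg) and 4.85-fold in Ltb4r2-/- (−2.28 ± 0.45, adjusted p = 6.08e-05). Under Oxa1l they fell 1.90-fold in WT (−0.92 ± 0.20, adjusted p = 2.78e-04 by edgeR) and 3.35-fold in Ltb4r2-/- (−1.74 ± 0.20, adjusted p = 5.00e-09). No M1 library overlapped an M0 library of its genotype for either gene. Of all genes tested, 24.3% fell in WT and 25.7% in Ltb4r2-/-, and 21.8% and 23.8% were lower with no overlapping library, the shares against which the fall of both genes is to be read. Without WT M0 replicate 1 the WT changes were −0.60 for Oxa1l (adjusted p = 0.00514 by edgeR), still past the threshold, and −2.81 for Slc7a7 (adjusted p = 2.14e-10). With libraries scaled by total count only, the median gene shifted by −0.64 in WT and −0.60 in Ltb4r2-/- and Oxa1l was at −1.54 and −2.35, Slc7a7 at −3.12 and −2.87.

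The second comparison was of M2 with M0, in which Oxa1l fell and Slc7a7 did not pass the test. Counts under Oxa1l fell 3.30-fold in WT (log2 fold change −1.72 ± 0.21 SE, adjusted p = 1.00e-07 by edgeR) and 4.36-fold in Ltb4r2-/- (−2.12 ± 0.20, adjusted p = 3.16e-10), with no overlap of libraries. Counts under Slc7a7 had a log2 fold change of −0.15 ± 0.26 in WT (adjusted p = 0.731 by edgeR, 95% interval −0.66 to 0.36) and −0.21 ± 0.33 in Ltb4r2-/- (adjusted p = 0.675, interval −0.86 to 0.43), and its M0 and M2 libraries overlapped. These intervals leave room for changes in either direction, and a value that misses the threshold does not show an equal level. Of all genes tested, 11.8% fell in WT and 15% in Ltb4r2-/-, and 12.1% and 15.5% were lower without overlap, beside 1 of the 2 genes here. The difference between the genes was not itself tested in this model; the share below measures it within libraries. Without WT M0 replicate 1 the WT changes were −1.38 for Oxa1l and −0.43 for Slc7a7 (adjusted p = 0.217 by edgeR).

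The polarized states were also compared with each other. Counts under Slc7a7 were lower in M1 than in M2, 5.11-fold in WT (log2 fold change −2.35 ± 0.31 SE, adjusted p = 9.89e-08 by edgeR) and 4.19-fold in Ltb4r2-/- (−2.07 ± 0.46, adjusted p = 3.10e-04). Counts under Oxa1l were 1.74-fold higher in M1 than in M2 in WT (0.80 ± 0.22, adjusted p = 0.00249 by edgeR), and in Ltb4r2-/- the value was 0.38 ± 0.21 (adjusted p = 0.124) with overlapping libraries. Of all genes tested, 26.3% were lower and 26.2% higher in WT, and 26.5% and 26.4% in Ltb4r2-/-. Libraries did not overlap, in the lower and higher direction, for 22.6% and 24% of genes in WT and 23.2% and 23.7% in Ltb4r2-/-. The Oxa1l call depends on how libraries are scaled, since with total counts only it was 0.23 in WT (adjusted p = 0.360 by edgeR) and −0.19 in Ltb4r2-/- (adjusted p = 0.421), where the median gene shifted by −0.58 and −0.59. Slc7a7 kept its direction and its calls under that scaling. The summed level of the 10 macrophage markers moved with the states too, at 1572 to 2036 CPM in WT M0, 512 to 858 in WT M1 and 450 to 787 in WT M2, and at 1478 to 1871, 375 to 496 and 541 to 663 in Ltb4r2-/-; their part in the changes of the pair was not tested. The summed level of 6 dendritic cell markers was 491 to 819 CPM in WT M1 and 670 to 1079 in Ltb4r2-/- M1, against 29.7 to 136 in the other groups. Nearly all of it was Xcr1, with Flt3, Zbtb46 and Cd209a at 0 in every library. Of the 6 markers, 4 were at 0 in WT M1 and 5 in Ltb4r2-/- M1, so the sum does not measure a cell type. Its part in the changes of the pair was not tested either. In bulk RNA, fewer cells of a type and less RNA per cell cannot be told apart.

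**Figure D3:**
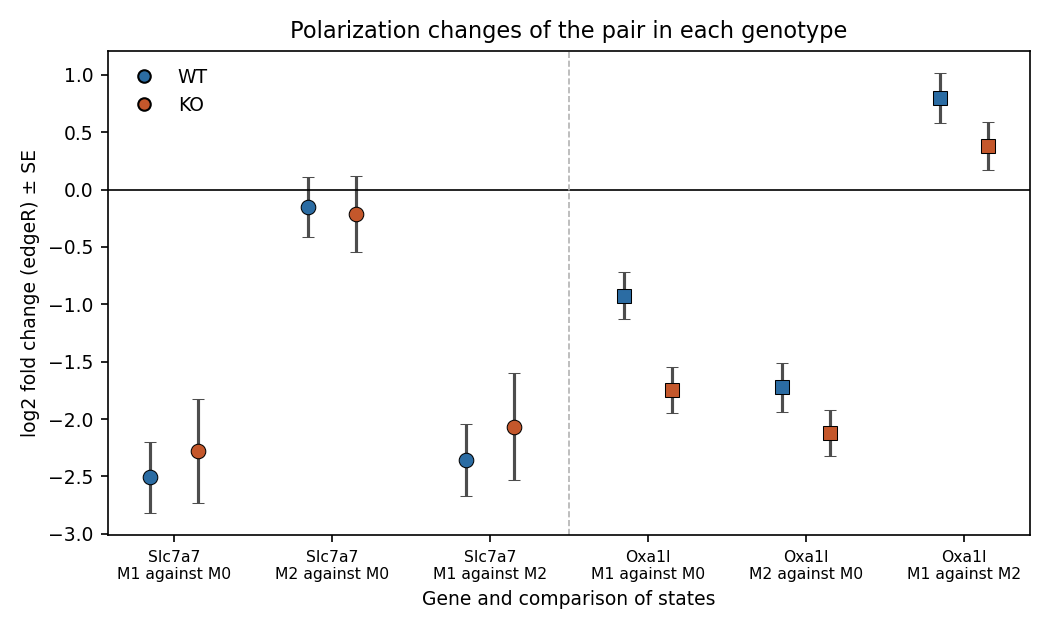
Log2 fold changes (edgeR, error bars SE) between states for Slc7a7 (circles) and Oxa1l (squares) in WT (blue) and Ltb4r2-/- (labelled KO, orange). Slc7a7 was lower in M1 than in either other state (−2.07 to −2.51) and near 0 between M2 and M0, whereas Oxa1l fell in both polarized states (−0.92 to −2.12).

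Whether polarization changed the genes differently in the 2 genotypes was not tested, because that difference equals a difference of the genotype contrasts that chose the pair. Those contrasts are described next. Under Slc7a7 the Ltb4r2-/- libraries lay 4.56-fold below WT in M0 (log2 fold change −2.19 ± 0.29 SE), 3.89-fold in M1 (−1.96 ± 0.48) and 4.76-fold in M2 (−2.25 ± 0.30). Each of the 3 states had all 4 Ltb4r2-/- libraries below all 4 WT libraries, where 1.51%, 2.1% and 1.02% of genes tested lay lower without overlap. Under Oxa1l the Ltb4r2-/- libraries lay 2.42-fold above WT in M0 (1.27 ± 0.19), 1.37-fold in M1 (0.45 ± 0.21) and 1.83-fold in M2 (0.87 ± 0.22). The libraries did not overlap in M0 and M2 and overlapped in M1, beside 1.51% (M0), 1.25% (M2) and 1.44% (M1) of genes that lay higher without overlap. Without WT M0 replicate 1 the M0 values were −2.47 for Slc7a7 and 1.61 for Oxa1l. In the M1 libraries taken alone Slc7a7 fell under the filter on low counts, and its M1 values rest on the shared fit of 24 libraries.

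The share of the pair's counts that lay under Slc7a7 needs no scaling between libraries. It is a share of counts and not of transcripts, since the genes differ in length. In WT M0 it was 7.97%, 34.5%, 35.3% and 33.1% for replicates 1 to 4, in WT M1 5.33%, 12.9%, 13.1% and 10.5%, and in WT M2 38.6%, 59.0%, 57.4% and 44.2%. Only in 2 WT M2 libraries did Slc7a7 hold more counts than Oxa1l. In Ltb4r2-/- M0 it was 3.70%, 2.38%, 2.93% and 3.03%, in M1 1.68%, 2.84%, 1.52% and 2.19%, and in M2 9.47%, 7.41%, 12.8% and 12.1%. In each state every Ltb4r2-/- library had a lower share than every WT library, a description since the same contrast chose the pair. The Wilson 95% intervals, which cover counting error alone, ran from 5.99% to 10.5% in WT M0 replicate 1 and from 28.0% to 40.4% over its 3 mates. In Ltb4r2-/- M0 they ran from 1.54% to 5.49%.

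The share moved with the state in both genotypes. It rose from M0 to M2, from 27.7% ± 13.2 to 49.8% ± 10.0 in WT and from 3.01% ± 0.541 to 10.4% ± 2.47 in Ltb4r2-/- (SD, n = 4; exact two-sided permutation test, p = 0.0286 each, adjusted p = 0.0429 over 6 comparisons). That p is the smallest that 4 against 4 libraries allow. It was lower in M1 than in M2, at 10.5% ± 3.62 in WT and 2.05% ± 0.596 in Ltb4r2-/- (exact p = 0.0286 each, adjusted p = 0.0429). Between M1 and M0 the test was not passed in WT (exact p = 0.114, adjusted p = 0.114) or in Ltb4r2-/- (exact p = 0.0571, adjusted p = 0.0686). Without WT M0 replicate 1 the WT difference between M1 and M0 passed (−23.8 percentage points, adjusted p = 0.0429, exact permutation). The rise from M0 to M2 in WT did not pass without any 1 of the WT M0 libraries, at 15.5 points without replicate 1 (adjusted p = 0.0571) and 23.9 to 24.6 points without replicate 2, 3 or 4 (adjusted p = 0.0686). Without replicate 2, 3 or 4 of WT M0 the other 3 calls also had an adjusted p of 0.0571, through the adjustment over 6 comparisons, their own exact p staying at 0.0286. Replicate 1 had the lowest share of the WT libraries in each state. Without it the WT means were 34.3% ± 1.12 in M0, 12.2% ± 1.43 in M1 and 53.5% ± 8.16 in M2 (SD, n = 3).

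The summed level of the pair behaved differently from its split. The sum was 663 ± 153 CPM in WT M0 and 1234 ± 83.6 in Ltb4r2-/- M0, 288 ± 74.3 and 365 ± 62.1 in M1, and 302 ± 33.1 and 305 ± 60.8 in M2 (SD, n = 4). In M2 the sums of the genotypes thus lay within each other's spread while their shares did not overlap, and in M0 both the sum and the share lay apart.

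**Figure D4:**
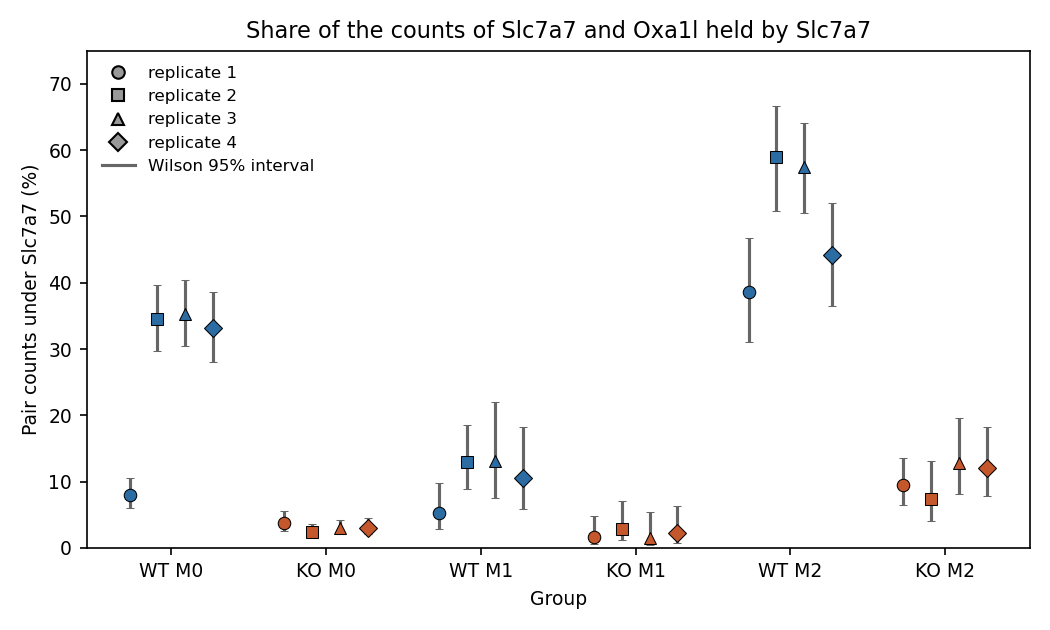
Percent of the counts of the pair that lay under Slc7a7 in each library, with Wilson 95% intervals, WT in blue and Ltb4r2-/- (labelled KO) in orange, marker shapes giving the replicate. All Ltb4r2-/- libraries lay below the WT libraries of their state (for example 7.41% to 12.8% against 38.6% to 59.0% in M2), and WT M0 replicate 1 (7.97%) lay far below its mates.

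Genes with a like pattern were sought over the 6 group means, as the root mean square difference of log2 CPM centred on each gene's own mean, among 3032 genes with a mean of at least 10 counts in some group. Nearest to Slc7a7 were Calm2 (difference 0.60), which encodes calmodulin, Dgcr8 (0.74), a partner of the microRNA-processing enzyme Drosha, and Nup214 (0.77), a nuclear pore gene, beside a range of 3.85 for Slc7a7 itself. Nearest to Oxa1l were Ttbk2 (0.31), a tau tubulin kinase gene, Qrfp (0.44), which encodes a neuropeptide, and Trim65 (0.45), a ubiquitin ligase gene, beside a range of 2.98. Trim65 had 62.6 CPM in WT M0 and 97.4 in Ltb4r2-/- M0, 54.9 and 47.9 in M1, and 25.0 and 34.0 in M2. Calm2 had 25.4 and 14.5 CPM in M0, 6.03 and 2.46 in M1, and 22.7 and 11.6 in M2. Ttbk2 had 20.8 CPM in Ltb4r2-/- M0 but 0.82 in WT M2 and 2.92 in Ltb4r2-/- M1, levels near the floor. The genes nearest to Slc7a7 were also near it in Ltb4r2-/- M1, at 2.46 CPM for Calm2, 1.94 for Dgcr8 and 4.83 for Nup214. These orders changed with the settings: among genes with a mean of at least 50 counts the nearest to Slc7a7 was Tep1 (0.79) and to Oxa1l Trim65 (0.45). With a prior count of 0.5 in place of 2 Calm2 stayed nearest to Slc7a7, and the nearest to Oxa1l were Trim65 (0.44), Scarf1 and Cfap74. Without WT M0 replicate 1 Calm2 (0.67) and Ttbk2 (0.36) were still nearest, and Tep1 (0.79) came second for Slc7a7.

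Few neighbours of the pair had enough counts to be tested, and none was called between genotypes (0.131%, 0.0656% and 0.131% of all genes tested were called in M0, M1 and M2). Of 97 annotated genes within 250 kb, 18 were in the table and 2 passed the filter, Acin1 and the antisense gene 4930579G18Rik, which overlap each other. The genes beside Slc7a7 were nearly silent in the table, with at most 5 counts of Mrpl52, a mitochondrial ribosome gene, and at most 23 of Mmp14, a membrane metalloprotease gene, in a library.

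Counts under other genes of the pathway of Slc7a7 moved with the state in their own ways. As for the pair, the strand that these counts came from was not tested. Of 17 listed amino acid transporters 7 were tested, and relative to M0 3 were higher and 1 lower in M1 in both genotypes, 2 higher and 1 lower in WT M2, and 4 higher and 1 lower in Ltb4r2-/- M2. Of all genes tested, 26.9% were higher and 24.3% lower in WT M1, 27.1% and 25.7% in Ltb4r2-/- M1, 15.2% and 11.8% in WT M2, and 16.9% and 15% in Ltb4r2-/- M2, the shares beside which the counts of each list are to be read. Slc7a2, the arginine transporter CAT2, was at 0.39 CPM in WT M0, 34.0 in WT M1 and 18.3 in WT M2 (adjusted p = 4.61e-07 for M1 and 5.71e-05 for M2, edgeR). Slc7a11, the cystine transporter xCT, rose in WT M1 from 1.18 to 21.4 CPM (adjusted p = 2.91e-04 by edgeR). The WT M0 levels of Slc7a2 and Slc7a11 were near the floor. The member called lower in M1 was Slc7a15, at 21.4 CPM in WT M0 and 6.04 in WT M1 (−1.78 ± 0.62, adjusted p = 0.0158 by edgeR). In Ltb4r2-/- M1 it was at −2.85 ± 0.73 (adjusted p = 0.00134 by edgeR). Slc3a2, the heavy chain that pairs with the Slc7a7 product, had 53.8 CPM in WT M1 and 24.4 in WT M2 (log2 fold change 1.14 ± 0.38, adjusted p = 0.0120 by edgeR), opposite in direction to Slc7a7 in that comparison. With total counts only it was 0.58 (adjusted p = 0.192 by edgeR), and 2 list members were lower in M1 than M0 in WT and 3 in Ltb4r2-/-. The median over the list from M0 to M1 was 0.62 in WT and 1.06 in Ltb4r2-/-, beside −0.02 and −0.0023 over all genes. Of 12 listed genes of arginine metabolism 3 were tested, and the inducible nitric oxide synthase Nos2 was at 190 CPM in WT M1 and at 0 in WT M0, while arginase Arg1 rose in WT M2 from 5.52 to 33.2 CPM (2.52 ± 0.55, adjusted p = 5.64e-04 by edgeR). No member of either list was called between genotypes. Of all genes tested, only 0.131%, 0.0656% and 0.131% were called in M0, M1 and M2, so the absence of calls is not particular to these lists.

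Genes that work with Oxa1l were also sparse in the table, and the strand of their counts was likewise not tested. Of 24 listed genes of inner membrane insertion and import 6 were tested, and relative to M0 3 were higher and 1 lower in WT M1, 1 lower in Ltb4r2-/- M1, 1 lower in WT M2 and 2 lower in Ltb4r2-/- M2, beside 26.9% higher and 24.3% lower over all genes in WT M1, 25.7% lower in Ltb4r2-/- M1, and 11.8% and 15% lower in M2 of WT and Ltb4r2-/-. Timm23, the channel of the inner membrane translocase, was lower in both polarized states, as Oxa1l was, at −2.65 ± 0.47 in WT M1 and −1.33 ± 0.40 in WT M2 (log2 fold change ± SE, adjusted p = 1.54e-05 and 0.0127 by edgeR). Dnajc19, another import gene, had 1558 CPM in WT M1 and 1257 in WT M0 (0.31 ± 0.11, adjusted p = 0.0205 by edgeR), and turned to −0.31 (adjusted p = 0.0141 by edgeR) with total counts only, under which 0 members were higher and 3 lower in WT M1. Of 37 listed assembly factors of the respiratory complexes 8 were tested, with 2 higher and 5 lower in WT M1, 2 and 4 in Ltb4r2-/- M1, 0 and 1 in WT M2, and 1 and 1 in Ltb4r2-/- M2, where in WT 26.9% of all genes were higher and 24.3% lower in M1, and 15.2% and 11.8% in M2. Ecsit, a complex I assembly gene, fell in both (−1.82 ± 0.28 and −0.79 ± 0.25). Of 78 listed mitochondrial ribosome genes 16 were tested, with 5 higher and 5 lower in M1 and 1 higher and 4 lower in M2, the same counts in each genotype, or 3 higher and 8 lower in WT M1 with total counts only, and its M1 counts are near the shares over all genes (26.9% higher and 24.3% lower in WT, 27.1% and 25.7% in Ltb4r2-/-). The medians of these 3 lists from M0 to M1 in WT were 0.34, −1.08 and −0.26, beside −0.02 over all genes. No member was called between genotypes, where 0.131%, 0.0656% and 0.131% of all genes tested were called in M0, M1 and M2.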

How the data were processed

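Poly(A) RNA of 24 BMDM libraries was analysed from the deposited raw counts per gene. The authors made them on the Rosalind platform with cutadapt (trimming), STAR (alignment to mm10) and HTSeq (counting), and versions and the strand setting are not given in the sources used here. The deposited log2 values are the log2 of size-factor-normalized counts plus 1, made by the authors with DESeq2's method, and were checked against the counts (largest difference 5e-14) and not used further.

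Genes were filtered with filterByExpr (minimum count 10, minimum total 15), leaving 3047 of 24557, and TMM-scaled counts were tested with the quasi-likelihood method of edgeR (edgeR 4.0.16, limma 3.58.1, R 4.3.3) in 1 fit of 24 libraries with 6 group means, with Benjamini-Hochberg adjustment at 0.05 over all genes tested. The SE was taken from the log2 fold change and the F statistic as its absolute size over the root of F. CPM are on the TMM scale and log2 CPM used a prior count of 2. P-values measure the spread between libraries labelled as biological replicates, whose animals are not named. Shares were compared by exact permutation of libraries (70 arrangements), with Wilson 95% intervals per library, which cover counting error alone. Positions came from GENCODE M21 (GRCm38), under which 23961 genes were placed, and promoter windows from RefSeq.

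The members, the gene lists and the motifs were chosen with earlier results of these data known, and longer motifs (NRF1, STAT6, NF-kB and the interferon-stimulated response element), searched at first, are not reported here. Named genes are the pair, the 3 nearest in pattern to each and, from the 3 list members with the smallest p in a comparison where any passed, some taken after their values were seen. Tep1, Parp2, Gm16617, Actb, the adjoining genes and the dendritic cell markers were named after their values were seen or for their known role. Alternatives were RLE scaling factors, total counts, DESeq2 1.42.0, no filter, a minimum mean of 50 counts, the replicate number as a block, the 8 libraries compared in a fit of their own, and each library left out. Leaving out replicate 1 of WT in the 3 states together, and WT M0 replicate 1 from the levels and the pattern search, was added after the data were seen. On simulated data for M1 against M0 in WT, the test recovered 22.4% of genes changed 1.5-fold, 46.3% of 2-fold and 75.8% of 4-fold among 2719 genes. The correlation of deviations of libraries with the same replicate number ran from −0.21 to 0.21 and was over 0.1 for all 4 numbers in no pair of groups. That cutoff was not set on libraries known to be paired, so it cannot decide whether a number stands for 1 animal. The main fit and the permutations did not pair libraries by number, and fits with the number as a block are among the alternatives.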

Additional observations from a re-analysis of the deposited data

Results flagged for a closer look

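WT M0 replicate 1 lay far from the other libraries of its group in 3 related values, each with a gap to the nearest library that exceeded Dixon's 95% critical share of the group's range for 4 samples. It had 70.7 CPM under Slc7a7 (gap 0.841 of the range), 817 CPM under Oxa1l (0.876) and 7.97% of the counts of the pair under Slc7a7 (0.919). In all, 18 groups of 4 values were checked and these 3 exceeded it, and chance gives about 1 in 20. The 3 values come from the same library and the same reads and are not independent.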

How the results depend on the processing

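Genotype log2 fold changes kept their direction in all 188 alternative values and moved by less than the spread between replicates of the groups compared. In M0 that spread includes WT M0 replicate 1 itself (SD of log2 CPM 0.54 for Oxa1l in WT M0). It therefore cannot judge the removal of that library, which moved Oxa1l in M0 from 1.27 to 1.61. The 188 values count each gene, comparison and setting, and many left out a library of neither group compared. Leaving out a library gave −2.47 to −2.05 for Slc7a7 and 1.15 to 1.61 for Oxa1l in M0, −2.13 to −1.66 and 0.33 to 0.61 in M1, and −2.41 to −2.11 and 0.72 to 0.97 in M2. Among polarization values, Oxa1l in M1 against M2 changed with scaling by total counts, to 0.23 in WT (adjusted p = 0.360 by edgeR) and −0.19 in Ltb4r2-/- (adjusted p = 0.421), where the median gene shifted by −0.58 and −0.59. The replicate block gave Oxa1l in M1 against M2 in Ltb4r2-/- a value of 0.39 (adjusted p = 0.0514 by edgeR), and 0.39 with the replicate block within genotype (adjusted p = 0.0457), and changed no other call. The same value was 0.23 to 0.49 with a library left out and 0.38 (adjusted p = 0.0472) without replicate 1 of WT. Slc7a7 in M2 against M0 in WT, never past the threshold, ran from −0.43 to 0.0023 with a library left out. The difference in share ran, with a library left out, from −23.8 to −14.7 percentage points for M1 against M0 in WT, from 15.5 to 25.8 and from 6.64 to 8.44 for M2 against M0 in WT and Ltb4r2-/-, and from −43.1 to −36.3 and from −9.39 to −7.60 for M1 against M2. Adjusted p over these ranges ran from 0.0429 to 0.143 (exact permutation). Every call was lost without WT M0 replicate 2, 3 or 4, and without WT M0 replicate 1 only that of M2 against M0 in WT. Without replicate 1 of WT in the 3 states the called differences were 19.2 and 7.43 points for M2 against M0 in WT and Ltb4r2-/-. They were −41.4 and −8.38 for M1 against M2 (adjusted p 0.0857 to 0.1 for these values, exact permutation). Slc7a7, with a mean below 50 counts, had no value under that filter or in the M1 libraries alone, and genotype has none with a block within genotype. Counts of list calls moved by over 1.5 times in 46 of 324 cases, and the nearest gene was another one in 3 of 4; the cause was not tested. At 2 to 4 counts a library, Slc7a7 in Ltb4r2-/- M1 is limited by depth.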
